A study of Homo sapiens with 6 samples.

Results

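The 7 genes described here, BNIP3, BNIP3L, FAM162A, FUNDC1, PINK1, PHB2 and FKBP8, code for mitochondrial proteins tied to hypoxic cell death or to mitophagy, the removal of mitochondria by autophagy. They were taken by gene symbol from a table of 60675 gene IDs, and each symbol had 1 entry. The libraries were made from total RNA of HCT116, a line of human colon cancer cells, with stable expression of either the K29Q form of PHF5A (K29Q, 3 libraries) or wild-type PHF5A (WT, 3 libraries). PHF5A is a subunit of the SF3B complex, which recognises intron branch sites during splicing. In K29Q a glutamine, often used to mimic an acetylated lysine, replaces a lysine. The series title ties PHF5A acetylation to stress responses and to KDM3A, a histone demethylase that is itself a hypoxia target. Described here is how genes tied to hypoxia or mitophagy differ between K29Q and WT cells. The labels name no hypoxia or other treatment, and they do not say whether the endogenous PHF5A gene was removed, whether a line was 1 clone, or whether replicate libraries trace back to different cultures. All p-values therefore measure only the spread among these 6 libraries, and that spread may be technical.

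Mitophagy receptors carry a short motif that binds ATG8 proteins (the LC3 and GABARAP families) on the growing autophagosome. BNIP3 and BNIP3L (also called NIX) are related outer membrane receptors with a BH3-like region, and both are known to be induced through HIF1 when oxygen falls. FAM162A is a HIF1-responsive mitochondrial protein linked to hypoxic cell death. FUNDC1 is an outer membrane receptor controlled mainly by phosphorylation, FKBP8 an outer membrane receptor that also binds BCL2, and PHB2 an inner membrane prohibitin that binds LC3 once the outer membrane is broken. PINK1 is the kinase that marks damaged mitochondria by phosphorylating ubiquitin.

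The promoters of BNIP3 and FAM162A are shown because HIF1 is known to bind the letters ACGTG or GCGTG, and that of FUNDC1 because its difference between K29Q and WT, given below, was near 0. RefSeq (GRCh38.p14) promoter windows matched 4 of the 7 genes by symbol: BNIP3, FAM162A, FUNDC1 and PHB2. Each line below gives the 250 bases before the RefSeq start, 5′ to 3′ on the gene's strand, and capitals mark ACGTG or GCGTG on either strand. GENCODE 29 puts the first base of all 3 genes inside the window. The windows are chr10:131981924-131982173 (minus strand) for BNIP3, chr3:122383932-122384181 (plus strand) for FAM162A and chrX:44542860-44543109 (minus strand) for FUNDC1.
BNIP3: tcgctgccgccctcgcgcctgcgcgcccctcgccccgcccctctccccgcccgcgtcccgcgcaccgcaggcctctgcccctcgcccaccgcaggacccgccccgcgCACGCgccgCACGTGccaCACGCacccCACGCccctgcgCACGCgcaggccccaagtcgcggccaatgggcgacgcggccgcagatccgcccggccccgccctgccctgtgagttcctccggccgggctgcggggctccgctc
FAM162A: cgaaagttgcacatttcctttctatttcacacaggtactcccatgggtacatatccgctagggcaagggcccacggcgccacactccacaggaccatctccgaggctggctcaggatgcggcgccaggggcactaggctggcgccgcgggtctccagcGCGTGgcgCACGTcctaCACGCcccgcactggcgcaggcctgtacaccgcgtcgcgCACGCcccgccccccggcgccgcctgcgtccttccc
FUNDC1: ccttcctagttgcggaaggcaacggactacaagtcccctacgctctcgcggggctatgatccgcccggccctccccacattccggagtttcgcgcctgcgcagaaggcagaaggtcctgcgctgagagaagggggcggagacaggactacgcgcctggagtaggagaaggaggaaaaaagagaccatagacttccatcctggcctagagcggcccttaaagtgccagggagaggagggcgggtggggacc
The BNIP3 window held ACGTG in 2 places, which overlap as a palindrome, and GCGTG in 4 places. The FAM162A window held ACGTG in 1 place and GCGTG in 3 places. Neither set of letters was in the FUNDC1 window, nor in the 2 windows listed for PHB2. Over all 35116 windows of the same length, 18.5% held ACGTG on either strand, 32.2% held GCGTG and 7.52% held both. The GC content was 81.6% in the BNIP3 window, 68.4% in the FAM162A window and 62.4% in the FUNDC1 window, against a median of 58.0% over all windows. These matches describe the letters alone. No window was listed for PINK1, FKBP8 or BNIP3L, and BNIP3L had the largest difference. FUNDC1 was picked by its values, so its contrast with BNIP3 and FAM162A is no test. Whether the letters bear on the differences was not tested.

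Levels are FPKM, that is, fragments scaled to transcript length and to the total mapped in that library. The values of single-exon genes moved in weak steps, with scores of 0.179 to 0.2165 where clean steps would give 1. Step sizes were sought only within a fixed range, which also bounds the depth estimate. If 1 step was 1 fragment, the libraries held between 34000000 and 40400000 fragments. At that depth the smallest estimate for any of the 7 genes in any library was about 420 fragments, for FUNDC1. PHF5A, whose reads could come from introduced and endogenous transcripts, had 44.1 ± 2.38 FPKM in K29Q and 33.15 ± 1.06 in WT (SD, n = 3 each). It did not overlap, and K29Q was higher by 0.40 on the log2 scale, which missed the threshold used below (limma, adjusted p = 0.110). Of all tested genes, 8.8% did not overlap with K29Q higher. The level of PHF5A moved with its form, and its part in the results below was not tested. On the first principal component, with 34.1% of the variance, WT 1 (−4.72) lay beside the K29Q libraries (−14.92 to −4.76) and apart from WT 2 and WT 3 (13.22 and 17.99). The column headers carry 2 codes that the labels do not explain. They are read here as sequencing runs, called run A (K29Q 1, K29Q 2 and WT 2) and run B (K29Q 3, WT 1 and WT 3), so that run A holds 1 WT library and run B 1 K29Q library. Of 9 epithelial markers 6 averaged at least 1 FPKM, led by KRT19, with summed levels of 1147 to 1201 FPKM in K29Q and 1248 to 1400 in WT. The 8 fibroblast and endothelial markers summed to 4.76 to 6.13 FPKM in K29Q and 4.61 to 5.54 in WT, of which COL1A1 averaged 4.97 and 2 were at 0 in all libraries. The 6 leukocyte and blood markers summed to 0.9753 to 1.60 FPKM in K29Q and 0.736 to 1.16 in WT, led by LYZ at 0.614, with none at 0 in all libraries. Most of the epithelial sum came from KRT19, KRT8 and KRT18. Of the 6 markers, 5 were lower in K29Q by mean log2 level and 1, EPCAM, was higher (58.1 FPKM in K29Q and 55.8 in WT, overlapping). CDX2 barely differed, at 3.25 FPKM in K29Q and 3.28 in WT. The lower epithelial sum in K29Q moved with the groups, and its part in the results below was not tested.

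BNIP3L, FAM162A and BNIP3 were higher in every K29Q library than in any WT library, and FUNDC1, PINK1, PHB2 and FKBP8 overlapped between the groups. In bulk RNA, a difference in every cell and one in some of the cells cannot be told apart. Limma was run on log2(FPKM + 1) for 13261 genes that reached 1 FPKM in 3 or more libraries, and all 7 genes passed this filter. After Benjamini-Hochberg adjustment over all tested genes, 0 of the 7 passed an adjusted p of 0.05, where 0.0528% of all tested genes did in either direction and 0.0302% did with K29Q higher. An unadjusted limma p under 0.05 with a higher value in K29Q was reached by 3 of the 7, against 7.65% of tested genes, and with a lower value by 0 of the 7, against 4.89%. The groups did not overlap, with K29Q higher, for 3 of the 7, against 8.8% of tested genes, and for 0 of the 7 with K29Q lower, against 9%. The median log2 fold change of the 7 was 0.07, and that of all tested genes was 0.00305. The 7 were chosen with earlier results of these data known, so these counts are a description.

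**Figure D1:**
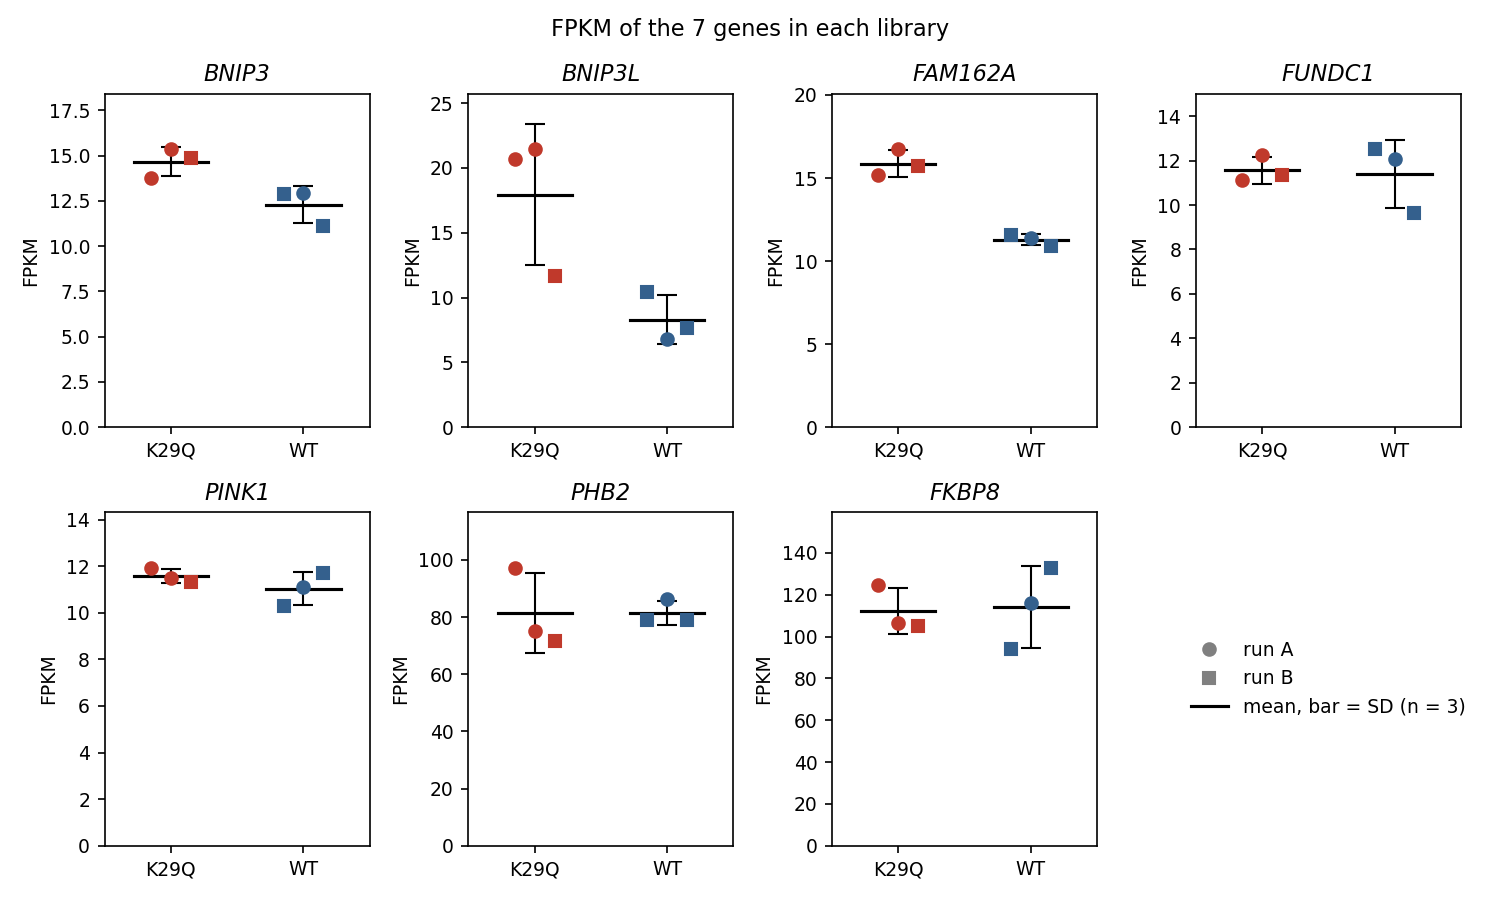
FPKM (vertical axes, each starting at 0) of the 7 genes in the K29Q and WT libraries, replicates 1 to 3 from left to right in each group, with circles for run A, squares for run B, and the mean and SD in black. BNIP3, BNIP3L and FAM162A show no overlap between the groups, and BNIP3L in K29Q splits into 20.7 and 21.45 FPKM in run A and 11.7 in run B.

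FAM162A gave the most even difference. It had 15.2, 16.7 and 15.7 FPKM in K29Q 1 to 3, against 11.6, 11.4 and 10.9 FPKM in WT 1 to 3. All K29Q libraries lay well above all WT libraries, and the values were tight within each group. The means were 15.9 ± 0.794 FPKM in K29Q and 11.3 ± 0.344 in WT (SD, n = 3 each), a ratio of 1.41. On the log2 scale K29Q was higher by 0.46 (SE 0.063, 95% interval 0.31 to 0.60), which missed the threshold (limma, adjusted p = 0.0837). It was 0.45 within run A and 0.45 within run B. With GC content and transcript length regressed out of every library it was 0.37 and passed (limma, adjusted p = 0.0465), a setting in which 0.633% of genes passed. With the run added as a term to that correction it was 0.35 and no longer passed (limma, adjusted p = 0.131). FAM162A (ENSG00000114023) lies on chromosome 3 from 122384176 to 122412334 (GRCh38, plus strand), and its exons share 3 bases with WDR5B on the other strand.

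BNIP3L had the largest difference of the 7 and the widest spread of log2 values in both groups. It had 20.7, 21.45 and 11.7 FPKM in K29Q 1 to 3, against 10.4, 6.78 and 7.68 FPKM in WT 1 to 3. K29Q 1 and K29Q 2 stood far above the rest, and K29Q 3 was just above WT 1. The means were 17.9 ± 5.44 FPKM in K29Q and 8.30 ± 1.90 in WT (SD, n = 3 each), a ratio of 2.16. The log2 fold change of 1.0 (SE 0.24, 95% interval 0.43 to 1.57) was exceeded by 0.106% of tested genes, yet it missed the threshold (limma, adjusted p = 0.281). The difference was 1.505 within run A and 0.35 within run B, that is, larger among the libraries of run A. Each of these rests on 1 library in 1 of its arms, WT 2 in run A and K29Q 3 in run B. The gap between them was 1.16 (SE 0.26) and did not pass either (limma with a group by run term, adjusted p = 0.696). That term was added after the split of BNIP3L had been seen, so its value describes the split and is no independent test of it, and the lone libraries are assumed to vary like the others. The SD of the log2 values of BNIP3L was larger than that of 97.9% of tested genes among the K29Q libraries and of 93% among the WT libraries. BNIP3L (ENSG00000104765) lies on chromosome 8 from 26382898 to 26505636 (plus strand), and 330 of its 4307 exon bases lie across from PNMA2, which averaged 1.21 FPKM in K29Q and 1.13 in WT.

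BNIP3 differed by less than its relative. It had 13.8, 15.4 and 14.9 FPKM in K29Q 1 to 3, against 12.9, 12.9 and 11.1 FPKM in WT 1 to 3. The lowest K29Q value was close to the highest WT values, and WT 3 was the lowest of all. The means were 14.7 ± 0.798 FPKM in K29Q and 12.3 ± 1.02 in WT (SD, n = 3 each), a ratio of 1.19. On the log2 scale K29Q was higher by 0.24 (SE 0.079, 95% interval 0.05 to 0.43), which missed the threshold (limma, adjusted p = 0.368). It was 0.16 within run A and 0.29 within run B. BNIP3 (ENSG00000176171) lies on chromosome 10 from 131966455 to 131982013 (minus strand). The table also lists 39 BNIP3 pseudogenes, of which 30 were at 0 in every library, and the highest value of any in any library was 0.904 FPKM (BNIP3P11).

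**Figure D2:**
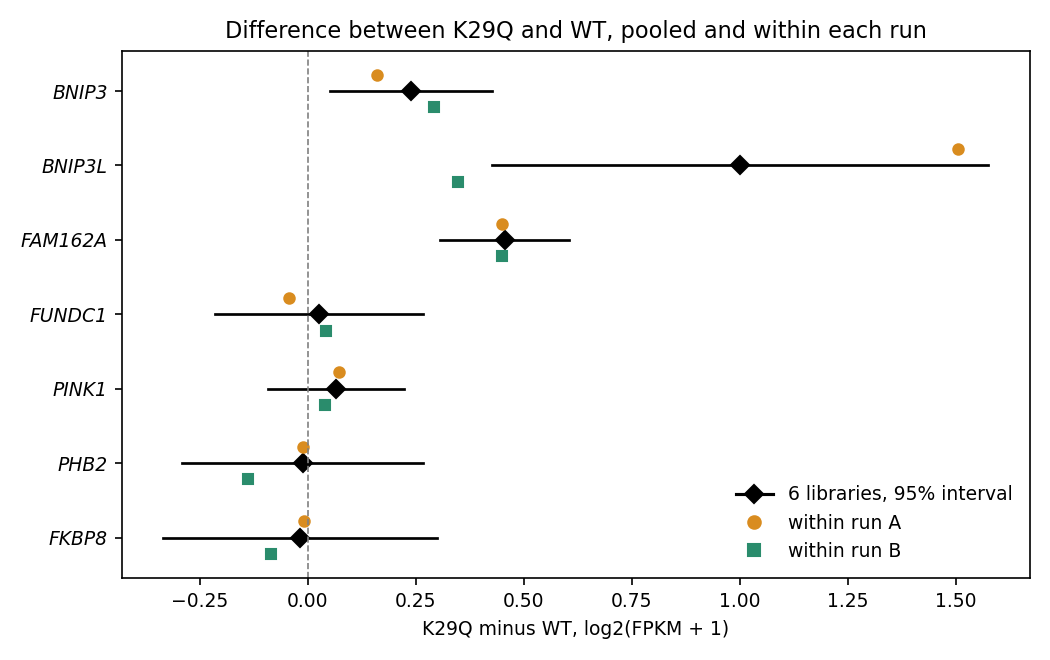
K29Q minus WT in log2(FPKM + 1) for each gene, with diamonds and 95% intervals from limma over 6 libraries, circles for the difference within run A and squares for run B. FAM162A has the same difference in both runs (0.45 each), whereas that of BNIP3L is 1.505 in run A and 0.35 in run B.

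The ratio of BNIP3L to BNIP3 mRNA followed BNIP3L. It was 1.502, 1.40 and 0.786 in K29Q 1 to 3, against 0.811, 0.525 and 0.691 in WT 1 to 3. BNIP3L was thus the more abundant of the pair in K29Q 1 and K29Q 2, and BNIP3 in K29Q 3 and all WT libraries. The ratio of FAM162A to BNIP3 was 1.10, 1.09 and 1.06 in K29Q 1 to 3, against 0.899, 0.883 and 0.981 in WT 1 to 3. These ratios did not overlap between the groups, 1 of 5 ratios computed. An exact two-sided permutation test of 3 against 3 values cannot give a p below 0.1, and 0.1 was reached by FAM162A, BNIP3L and BNIP3.

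The receptors FUNDC1, PHB2 and FKBP8 and the kinase PINK1 overlapped between the groups. FUNDC1 had 11.1, 12.3 and 11.3 FPKM in K29Q 1 to 3, against 12.5, 12.1 and 9.65 FPKM in WT 1 to 3. Its highest and its lowest value were both in WT libraries. Its log2 fold change was 0.03 (95% confidence interval −0.21 to 0.27, limma, adjusted p = 0.931). FUNDC1 (ENSG00000069509) lies on chromosome X from 44523639 to 44543001 (minus strand). Its paralog FUNDC2 was less abundant per length, at 1.35 ± 0.212 FPKM in K29Q and 1.56 ± 0.366 in WT (SD, n = 3 each).

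PINK1 had 11.9, 11.5 and 11.3 FPKM in K29Q 1 to 3, against 10.3, 11.1 and 11.7 FPKM in WT 1 to 3. The K29Q values lay within a narrow range that WT 3 entered. The log2 fold change was 0.07 (95% confidence interval −0.09 to 0.22, limma, adjusted p = 0.692). PINK1 (ENSG00000158828) lies on chromosome 1 from 20633455 to 20651511 (plus strand). It shares 1907 of its 4836 exon bases with PINK1-AS on the other strand. The strand option is not given in the sources used here, so reads over the shared bases may come from either gene. PINK1-AS had 6.30 ± 0.213 FPKM in K29Q and 6.62 ± 0.324 in WT (SD, n = 3 each).

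PHB2 had 97.3, 75.1 and 71.7 FPKM in K29Q 1 to 3, against 79.1, 86.2 and 78.9 FPKM in WT 1 to 3. K29Q 1 stood above and the other K29Q libraries below all WT values. The log2 fold change was −0.01 (95% confidence interval −0.29 to 0.27, limma, adjusted p = 0.973). PHB2 (ENSG00000215021) lies on chromosome 12 from 6965327 to 6970825 (minus strand), and its annotated exons span the small RNA gene SCARNA12. Its partner prohibitin, PHB1 (listed as PHB), had 67.0 ± 6.44 FPKM in K29Q and 64.6 ± 2.24 in WT (SD, n = 3 each). The ratio of PHB2 to PHB1 was 1.55, 1.18 and 0.964 in K29Q 1 to 3, against 1.28, 1.31 and 1.201 in WT 1 to 3, a wider range in K29Q.

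FKBP8 had 124.8, 106.3 and 105.2 FPKM in K29Q 1 to 3, against 93.85, 115.9 and 133.0 FPKM in WT 1 to 3. The K29Q values lay inside the WT range. Its log2 fold change was −0.02 (95% confidence interval −0.33 to 0.30, limma, adjusted p = 0.968). FKBP8 (ENSG00000105701) lies on chromosome 19 from 18531751 to 18544077 (minus strand). The intervals of FUNDC1, PHB2 and FKBP8 leave room for differences of about the size measured for BNIP3. These 3 genes are therefore not shown to be equal between K29Q and WT, and their signs turned with GC and length correction. PINK1, with an interval up to 0.22, is not shown to be equal either.

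Per length, FKBP8 and PHB2 were the most abundant of the 7 transcripts, with group means of 112.1 and 81.4 FPKM in K29Q and 114.2 and 81.4 FPKM in WT. FKBP8 exceeded PHB2 in both groups without overlap, and PHB2 exceeded the next gene without overlap. In K29Q the order went on with BNIP3L, FAM162A, BNIP3, PINK1 and FUNDC1. BNIP3L, FAM162A and BNIP3 each overlapped their neighbour, as did PINK1 and FUNDC1, and BNIP3 lay above PINK1 without overlap. In WT the order went on with BNIP3, FUNDC1, FAM162A, PINK1 and BNIP3L, and each of these overlapped its neighbour. All 7 lay above the lower 74.3% of tested genes by mean FPKM.

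The genes with the most similar pattern were sought by the root mean square difference, over 6 libraries, of log2 values centred on the gene's own mean. Nearest to FAM162A were IFIT2 (0.0258), DDIT4L (0.0338) and PAM (0.0377), where the deviation of FAM162A itself was 0.232. IFIT2 had 2.07 ± 0.147 FPKM in K29Q and 1.19 ± 0.108 in WT (SD, n = 3 each). Nearest to BNIP3 were FADS1 (0.0204), STK39 (0.0262) and NLN (0.0266), where the deviation of BNIP3 was 0.143. Nearest to BNIP3L were STX6 (0.176), HIPK3 (0.225) and ID2 (0.227), where the deviation of BNIP3L was 0.591. STX6 had 7.77, 8.43 and 3.54 FPKM in K29Q 1 to 3, against 3.33, 3.10 and 2.76 FPKM in WT 1 to 3. ID2 had 18.96, 19.8 and 9.77 FPKM in K29Q 1 to 3, against 9.35, 9.67 and 7.89 FPKM in WT 1 to 3. Both stood high in K29Q 1 and K29Q 2 and near the WT values in K29Q 3, the split seen for BNIP3L.

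**Figure D3:**
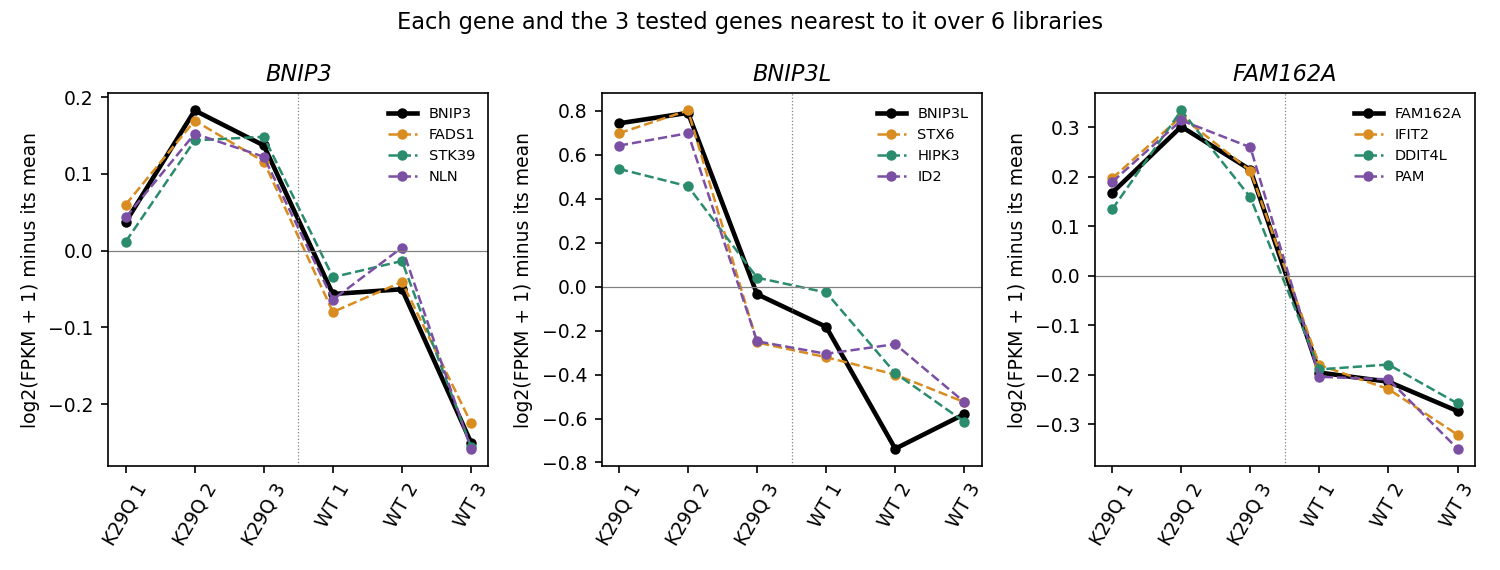
Log2(FPKM + 1) minus the gene's mean over 6 libraries, K29Q left and WT right of the dotted line, for BNIP3, BNIP3L and FAM162A (black) and the 3 tested genes nearest to each (dashed). BNIP3L, STX6, HIPK3 and ID2 were highest in K29Q 1 and K29Q 2 with K29Q 3 close to the highest WT library, and the nearest genes were chosen for such likeness.

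Known hypoxia targets outside the 7 genes lay mostly above 0, and none passed the test. The log2 fold change was positive for 26 of 30 such genes and negative for 4 (SLC2A1, PFKFB3, P4HA2 and ADORA2B, named after their values were seen), and its median was 0.18, against 0.00305 over all tested genes. Limma called 0 of the 30, and 11 had an unadjusted p under 0.05 with K29Q higher, against 7.65% of all tested genes, and 0 with K29Q lower, against 4.89%. The groups did not overlap for 15, all with K29Q higher, against 8.8% of all tested genes. CA9, a cell-surface carbonic anhydrase, had 6.52, 5.71 and 5.46 FPKM in K29Q 1 to 3, against 3.13, 2.90 and 3.70 FPKM in WT 1 to 3 (limma, adjusted p = 0.0837). KDM3A had 5.32, 6.59 and 5.55 FPKM in K29Q 1 to 3, against 4.32, 4.28 and 3.96 FPKM in WT 1 to 3 (limma, adjusted p = 0.235). The list median was 0.13 within run A and 0.25 within run B. A hypoxia list was already known from these data to lie higher in K29Q, so this is no independent support.

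The oxygen-sensing genes lay on both sides of 0. Their log2 fold change was positive for 6 of 9 and negative for 3, with a median of 0.09, and 0 passed (limma). An unadjusted p under 0.05 was reached by 1 of the 9, with K29Q higher, against 7.65% of all tested genes. HIF1A, the oxygen-regulated HIF subunit, had 23.0, 20.0 and 21.7 FPKM in K29Q 1 to 3, against 22.4, 17.98 and 13.5 FPKM in WT 1 to 3, and WT 1 fell among the K29Q values. EPAS1, which codes for the HIF2 alpha subunit and was named after its values were seen, lay furthest from 0 of the 9, at −0.34 (limma, adjusted p = 0.511). It had 3.64, 3.50 and 4.35 FPKM in K29Q 1 to 3, against 4.03, 4.28 and 7.505 FPKM in WT 1 to 3, and only WT 3 stood apart. The gene under that limit was EGLN1, a HIF prolyl hydroxylase that is also on the hypoxia list and was named after its values were seen, with 11.7 ± 0.405 FPKM in K29Q and 9.62 ± 0.214 in WT (SD, n = 3 each, limma, adjusted p = 0.257). EGLN3, another prolyl hydroxylase, averaged 1.90 ± 0.217 FPKM in K29Q and 1.66 ± 0.113 in WT (SD, n = 3 each). VHL, which marks hydroxylated HIF for destruction, averaged 10.3 ± 0.537 FPKM in K29Q and 10.8 ± 1.10 in WT (SD, n = 3 each).

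Other genes listed with the mitophagy receptors lay mostly below 0 on the log2 fold change scale. Of 6 measured (BCL2L13, NIPSNAP1, NIPSNAP2, AMBRA1, PHB1 and BCL2L1) 1 lay above 0 and 5 below, 0 passed (limma), and the median was −0.10. BCL2L1, at −0.12, is not an established receptor and is counted again below in the BCL2 family. An unadjusted p under 0.05 was reached by 1 of the 6, NIPSNAP1, with K29Q lower, against 4.89% of all tested genes. BCL2L13, an outer membrane receptor of the BCL2 family, averaged 5.88 ± 0.615 FPKM in K29Q and 6.27 ± 0.623 in WT (SD, n = 3 each). NIPSNAP1, a matrix protein that is displayed on damaged mitochondria, was chosen after its values were seen. It had 17.75, 16.4 and 16.7 FPKM in K29Q 1 to 3, against 44.3, 48.2 and 21.1 FPKM in WT 1 to 3. The groups did not overlap, WT 3 lay close to the K29Q libraries, and the log2 fold change of −1.03 (SE 0.28) did not pass (limma, adjusted p = 0.324). It was −1.44 within run A and −0.84 within run B. Of the 6 genes, 2 did not overlap with K29Q lower (NIPSNAP1 and AMBRA1), against 9% of all tested genes. With K29Q higher it was 0, against 8.8%.

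Genes that set receptor level or phosphorylation lay around 0. Of 10 measured 6 were higher in K29Q and 4 lower, the median was 0.02, and 0 passed (limma). An unadjusted p under 0.05 was reached by 1 of the 10, with K29Q higher, against 7.65% of all tested genes. This was CSNK2A1, a catalytic subunit of the kinase CK2, which phosphorylates FUNDC1, and it was named after its values were seen. It averaged 27.7 ± 4.21 FPKM in K29Q and 21.5 ± 1.48 in WT (SD, n = 3 each, limma, adjusted p = 0.368), without overlap. FBXL4 and PPTC7, which act together to keep BNIP3 and BNIP3L protein low, averaged 1.73 ± 0.106 and 9.72 ± 0.765 FPKM in K29Q and 1.496 ± 0.184 and 9.44 ± 1.24 in WT (SD, n = 3 each). PGAM5, the phosphatase that activates FUNDC1, averaged 30.8 ± 1.15 FPKM in K29Q and 34.9 ± 3.58 in WT (SD, n = 3 each) and did not overlap (limma, adjusted p = 0.439). Of the 10 genes, 1 did not overlap with K29Q higher (CSNK2A1), against 8.8% of all tested genes. With K29Q lower it was 1 (PGAM5), against 9%. FOXO3, a transcription factor known to drive BNIP3 in muscle, averaged 11.5 ± 0.241 FPKM in K29Q and 11.7 ± 0.545 in WT. Among the 19 tested genes of the PINK1 pathway there were 6 above 0 and 13 below, the median was −0.03, and 0 passed the test (limma). An unadjusted p under 0.05 was reached with K29Q lower by 0 of the 19, against 4.89% of all tested genes. It was reached with K29Q higher by 2, against 7.65%, both named after their values were seen. They were USP15, a deubiquitinase, with 1.71 ± 0.0668 FPKM in K29Q and 1.32 ± 0.188 in WT, and MFN1, a mitofusin of the outer membrane, with 6.23 ± 0.309 FPKM in K29Q and 4.91 ± 0.994 in WT (SD, n = 3 each). TOMM7, which holds PINK1 at the outer membrane, averaged 42.45 ± 3.68 FPKM in K29Q and 47.0 ± 2.16 in WT, and PARL, the protease that cleaves PINK1, 12.5 ± 0.593 in K29Q and 12.6 ± 0.106 in WT (SD, n = 3 each).

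The autophagy machinery that the receptors recruit gave no call. Of 5 tested ATG8 genes all lay below 0, as did 6502 of all 13261 tested genes. The median of the 5 was −0.14, which was −0.32 within run A and −0.03 within run B. Limma called 0, and 0 had an unadjusted p under 0.05, against 12.5% of all tested genes. MAP1LC3B, the usual LC3 marker of autophagosomes, averaged 11.2 ± 1.01 FPKM in K29Q and 12.6 ± 3.04 in WT (SD, n = 3 each). GABARAPL1 had 2.42, 2.75 and 5.81 FPKM in K29Q 1 to 3, against 2.78, 7.46 and 7.87 FPKM in WT 1 to 3, so that WT 1 was near the low K29Q libraries. Its log2 difference was −1.24 within run A and 0.23 within run B. Of 7 adaptors 6 lay above 0 and 1 below, with a median of 0.18 (0.04 within run A and 0.17 within run B), and 0 passed (limma). An unadjusted p under 0.05 was reached by 1 of the 7, OPTN, with K29Q higher, against 7.65% of all tested genes. OPTN, an adaptor for ubiquitin-marked mitochondria, averaged 7.74 ± 0.491 FPKM in K29Q and 6.49 ± 0.281 in WT (SD, n = 3 each, limma, adjusted p = 0.356). SQSTM1, the adaptor p62, averaged 47.7 ± 0.663 FPKM in K29Q and 42.4 ± 6.60 in WT. Of the 7 adaptors, 2 did not overlap with K29Q higher (OPTN and SQSTM1), against 8.8% of all tested genes. With K29Q lower it was 0, against 9%. Of 26 tested genes of autophagosome formation 15 were higher in K29Q and 11 lower, the median was 0.01, and 0 passed (limma). An unadjusted p under 0.05 was reached by 1 of the 26, with K29Q higher, against 7.65% of all tested genes. Among the 26 the kinase ULK1 averaged 7.45 ± 0.884 FPKM in K29Q and 7.30 ± 0.724 in WT, and BECN1 5.10 ± 0.130 in K29Q and 5.24 ± 0.875 in WT (SD, n = 3 each).

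The BCL2 family, to which the BH3-like receptors bind, lay mostly below 0. Of 16 genes 12 were tested, 3 above 0 and 9 below, with a median of −0.06. Limma called 0, and 0 had an unadjusted p under 0.05, against 12.5% of all tested genes. BCL2 itself was low, at 0.393 ± 0.0284 FPKM in K29Q and 0.450 ± 0.0473 in WT, whereas BCL2L1, which codes for BCL-xL, averaged 66.3 ± 4.10 FPKM in K29Q and 71.8 ± 3.15 in WT (SD, n = 3 each). The pore-forming BAX averaged 33.7 ± 1.62 FPKM in K29Q and 35.7 ± 2.36 in WT, and BAK1 13.8 ± 1.19 in K29Q and 15.2 ± 0.246 in WT (SD, n = 3 each). BAK1 did not overlap between the groups, with K29Q lower (limma, adjusted p = 0.479). That is 1 of the 12 tested genes, against 9% of all tested genes, and 0 with K29Q higher, against 8.8%.

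Lists of transcripts for the mitochondria that these receptors act on had medians close to 0, while single genes lay further from it. Of 9 prohibitin partners and inner membrane proteases 5 lay above 0 and 4 below with a median of 0.05, and OMA1, a stress-activated protease, averaged 3.37 ± 0.260 FPKM in K29Q and 3.16 ± 0.352 in WT (SD, n = 3 each). The log2 fold changes of these 9 ran from −0.24 (HAX1) to 0.23 (OPA1, named after its values were seen). Of 14 genes for outer membrane and matrix proteins 4 lay above 0 and 10 below with a median of −0.05. Their lowest value was −0.22 (VDAC1) and their highest 0.10 (TFAM, named after its values were seen). Of 13 mitochondrially encoded mRNAs 9 lay above 0 and 4 below, with a median of 0.06, a lowest value of −0.19 (MT-ND3) and a highest of 0.12 (MT-ATP8). None of these passed (limma, 0 called). HAX1, VDAC1 and MT-ND3, named after their values were seen, had an unadjusted p under 0.05, all with K29Q lower. That is 1 gene in each list, against 4.89% of all tested genes, and 0 with K29Q higher, against 7.65%. Of the 13 mitochondrially encoded mRNAs, 5 did not overlap with K29Q higher (MT-ND1, MT-ND4, MT-ATP6, MT-ATP8 and MT-CYB), against 8.8% of all tested genes. With K29Q lower it was 1 (MT-ND3), against 9%. Of the 6 tested relatives and overlapping loci of the 7 genes, 3 were higher in K29Q and 3 lower. Limma called 0, and 0 had an unadjusted p under 0.05, against 12.5% of all tested genes.

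**Figure D4:**
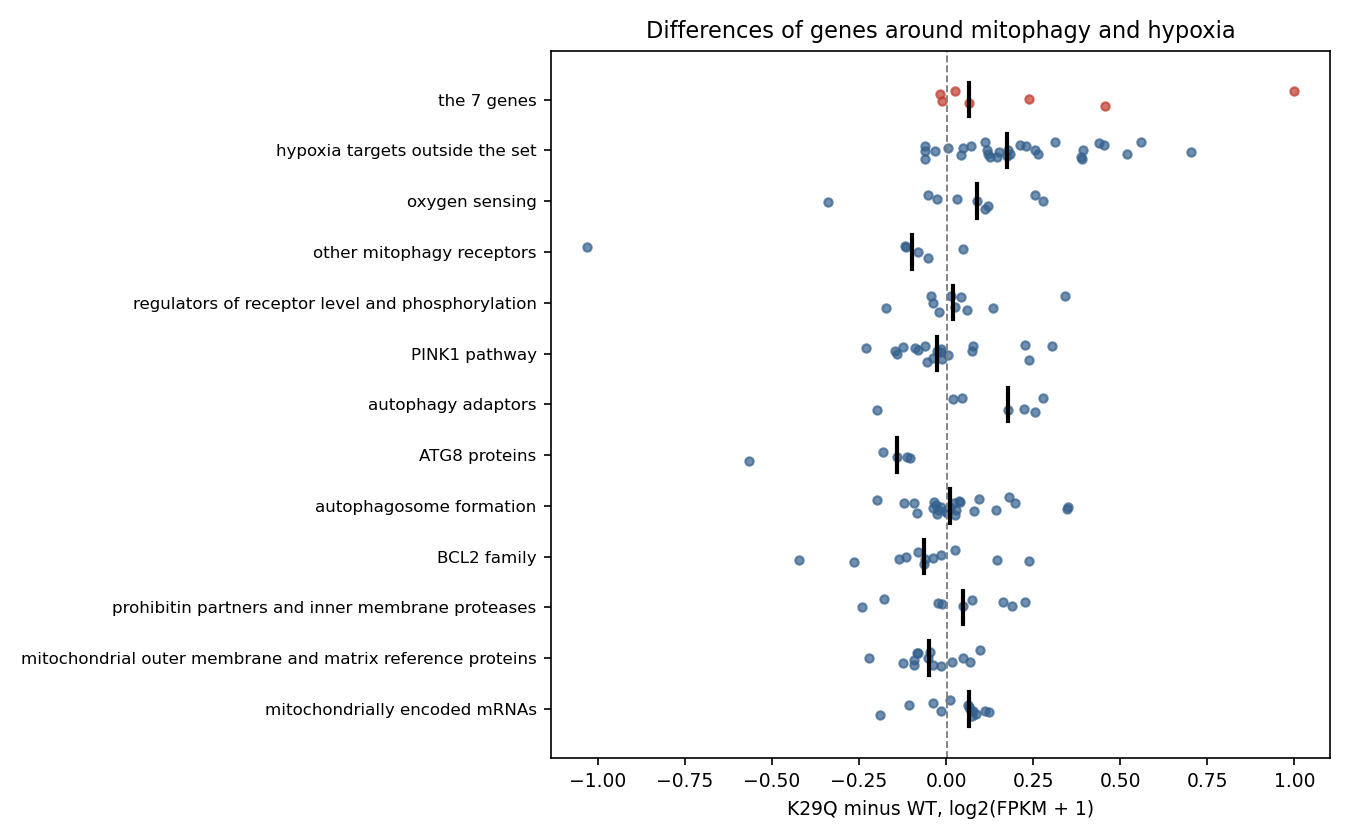
K29Q minus WT in log2(FPKM + 1) for each tested gene (points) of the 7 genes and of 12 lists around them, with black bars for list medians and a dashed line for the median of all tested genes. Hypoxia targets lie mostly to the right (median 0.18), ATG8 genes to the left (−0.14), and mitochondrially encoded mRNAs close to 0 (0.06).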

How the data were processed

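The authors deposited 1 table of FPKM values, with 1 column per library for 3 K29Q and 3 WT libraries, per the file headers. The submitters' processing notes name HISAT2 2.1.0, StringTie and the build GRCh38; for StringTie's version, the annotation release, the RNA selection and the strand option, the entry is "not given in the sources used here". FPKM values are not counts, and the weak steps in low values, sought within a fixed range of sizes, gave only a rough estimate of depth. Gene IDs were matched to GENCODE 29 (57055 of 60675), also where a symbol had been turned into a date number (MARCHF5). Values were analysed as log2(FPKM + 1), so fold changes of low genes are understated. Limma 3.58.1 (R 4.3.3) with an intensity trend was run on 13261 genes, with Benjamini-Hochberg adjustment, two-sided, and it was tested on simulated data. GC content and length trends used the longest transcript of 13108 genes and splines of 4 degrees of freedom. The 7 genes and all lists were chosen with earlier results of these data known. Named list genes were fixed by name, with those marked otherwise chosen later. The group by run test was added after the values were seen. Alternatives were another normalization, other filters, a pseudocount of 0.1, run and replicate terms, GC and length correction, and leaving out each library. There were 0 columns of other samples. A gene of the pathway lists is not reported here.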

Additional observations from a re-analysis of the deposited data

How the results depend on the processing

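Of 105 fold changes (7 genes under 15 alternatives), 84 kept their direction and their side of the threshold, 20 reversed and 1 newly passed. BNIP3, BNIP3L, FAM162A and PINK1 kept their sign in all 15, over 0.17 to 0.28, 0.79 to 1.27, 0.35 to 0.49 and 0.02 to 0.11. FAM162A passed after GC and length correction alone (0.37, limma, adjusted p = 0.0465; range over all alternatives 0.0465 to 0.343), which made 1 of the 7 genes pass. With that correction and the replicate block it stayed at 0.37 and did not pass (limma, adjusted p = 0.178). FUNDC1, PHB2 and FKBP8 had no stable sign. With quantile normalization FKBP8 was 0.0312 and PHB2 0.0299. With GC and length correction, with and without the replicate block, FKBP8 was 0.0390, FUNDC1 −0.0434 and PHB2 0.0504. With that correction and a run term FKBP8 was 0.0028 and FUNDC1 −0.0802, and with a run term alone FUNDC1 was −0.0011. Leaving out each library gave −0.1505 to 0.099 for FKBP8, −0.0807 to 0.0914 for FUNDC1 and −0.146 to 0.0710 for PHB2, and 0.17 to 0.28 for BNIP3, 0.85 to 1.27 for BNIP3L, 0.42 to 0.49 for FAM162A and 0.02 to 0.11 for PINK1. Over all genes 7 passed, and 13 did with quantile normalization, 2 without a filter, 3 with the replicate block, 4 with a run term, 83 with GC and length correction and 1 with that correction and the block. Leaving out each library gave 4 (without WT 2) to 19 (without WT 1). The cause was not tested. Deviations of same-numbered libraries from their group means were weakly correlated across genes (−0.14, 0.18 and −0.16 for replicates 1, 2 and 3). Deviations within a group sum to 0, so these correlations cannot settle whether same-numbered libraries were prepared as pairs. The labels do not say. With the replicate block 0 of the 7 genes passed, as without it. The smallest depth estimate behind any value of the 7 genes was about 420 fragments, for FUNDC1, and it rests on the weak steps described above.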

Other observations

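BCL2L2, a BCL2 relative that protects cells from death, split the libraries in another way (chosen after its values were seen). It had 1.96, 1.66 and 9.52 FPKM in K29Q 1 to 3, against 8.55, 1.58 and 2.44 FPKM in WT 1 to 3. K29Q 3 and WT 1, both of run B, stood high, and WT 3 of the same run did not. The read-through entry BCL2L2-PABPN1, which overlaps it on chromosome 14, had 1.97, 1.70 and 0.806 FPKM in K29Q 1 to 3, against 0.936, 1.04 and 1.88 FPKM in WT 1 to 3. The sum of both entries kept the split, with 10.3 FPKM in K29Q 3 and 9.49 in WT 1 and between 2.62 and 4.32 in the others. How the authors' counting divided reads between these entries was not tested.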
